A study of Mus musculus with 8 samples.

Results

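The genes described here are the Elavl and Celf families of RNA-binding proteins, Elavl1 to Elavl4 and Celf1 to Celf6, in neurons of the mouse stellate ganglion. The 10 genes were named as a list, and all 10 were found among the 19224 genes of the expression table. The list was selected on results of these same neurons, namely its pattern over the 8 neuronal subtypes, so every level by subtype below is a description without a p-value. The study profiled single cells from the stellate ganglia of 8 male C57BL6/J mice aged 8 to 10 weeks with the 10x Genomics Chromium system. All mice belonged to 1 condition. Each had received AAV-GFP in the heart and AAV-tdTomato in the front paws, so no untreated ganglion was compared. Left and right ganglia were combined for digestion, and sides cannot be told apart.

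Elavl proteins bind AU-rich and U-rich stretches of RNA and are known to stabilise transcripts and to guide splicing. Elavl1 (HuR) is made by most cell types, whereas Elavl2 (HuB), Elavl3 (HuC) and Elavl4 (HuD) are classical markers of neurons. Celf proteins bind GU-rich RNA and act in splicing, decay and translation. Celf1 and Celf2 are widely expressed, and Celf3 to Celf6 are best known from neurons.

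Values are UMIs (unique molecular identifiers, each 1 captured molecule) per 10000 UMIs of a neuron. The assay counts 1 end of each transcript, so no correction for length applies when genes are compared. Of 1303 neurons, 1002 came from 5 mouse names that each matched 1 sample, called replicates 1 to 5, and 301 came from 3 names that did not. The latter entered only values pooled over all neurons. Means ± SD are over mice with at least 10 neurons of a subtype, which gives 5 mice for NA1a, NA1b, NA1c and NA2 and 3 mice (replicates 2, 4 and 5) for NA3. The neurons of a matched mouse held 916296 to 1196621 UMIs in total. Median UMIs per neuron were 6524.5 in NA1a, 3252 in NA1b, 2685 in NA1c, 2461 in NA2 and 6773 in NA3. The median mitochondrial share of UMIs was 1.69% in NA1a, 2.76% in NA1b and 3.05% in NA1c. It was higher in NA2 (6.25%) and NA3 (6.60%), and stood at 8.11% in Ach1, 3.35% in Ach2 and 10.7% in Glut. The part of this difference in the levels by subtype was not tested. A total of 73 neurons carried a cell barcode that also occurred in another mouse's library, 55 of them in NA2, 15 in Ach2 and 3 in Glut. These 73 neurons represented 21 barcodes, and for 20 of the 21 all neurons were of 1 subtype. In NA2 they were 55 of the 150 neurons of matched mice. Whether neurons with 1 barcode are 1 cell read in several libraries was not tested. If they are, the NA2 values of the mice are not independent, which bears on every SD, count of mice and call for NA2. The NA2 levels of Elavl2, Celf3, Celf5 and Celf6 and the pooled levels of Ach2 and Glut are therefore given with and without the neurons of shared barcodes. Other values of these subtypes include them unless stated.

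NA1a, NA1b, NA1c, NA2 and NA3 are the noradrenergic subtypes, Ach1 and Ach2 the cholinergic subtypes and Glut the glutamatergic subtype, as named by the authors. All 8 neuronal markers examined (Snap25, Syt1, Pcsk1n, Prph, Tubb3, Uchl1, Dbh and Th) had UMIs in every subtype. Their summed level ran over mice from 126 to 154 (NA1a), 129 to 152 (NA1b), 123 to 146 (NA1c) and 179 to 210 (NA2). It was 66.0 to 70.6 in NA3. The 10 satellite glia markers, led by Apoe, Dbi and Fabp7, had the opposite distribution: their sum was 227 to 447 in NA3 and 4.42 to 30.9 in NA1a, NA1b, NA1c and NA2 together. All 10 of these markers were at or above 0.5 UMIs per 10000 in NA3, and 3 of 10 were in NA1a. Every value of NA3 below stands beside this difference, and its part in those values was not tested.

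In GRCm38, Elavl1 lies at chr8:4285382-4325413 and Elavl3 at chr9:22015005-22052023, both on the minus strand. Elavl2 (chr4:91250763-91400785) and Elavl4 (chr4:110203722-110351909) share chromosome 4 and the minus strand. Celf1 (chr2:90940382-91019497, plus strand) and Celf2 (chr2:6539694-7509563, minus strand) share chromosome 2, and Celf2 is the longest of the 10 genes at 970 kb. Celf3 (chr3:94478295-94492198, plus strand) is the shortest at 13.9 kb. Celf5 lies at chr10:81459227-81482709 on the minus strand and Celf6 at chr9:59577917-59607292 on the plus strand.

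Of the 10 members, 9 had a promoter window in the RefSeq table (GRCm38.p6), and 3 (Elavl1, Elavl3 and Celf1) had a single annotated start, so that the position of the window is unambiguous. The 250 bases before the start are shown for Elavl3 and Celf1. These are the 2 of these 3 that were called in NA1a against NA1c in the fit described below, a choice made after their values were seen. Capitals mark matches on either strand to GGGCGG (the GC box) or CANNTG (the E-box), and both sequences run 5′ to 3′ on the gene's strand, Elavl3 at chr9:22052024-22052273 (minus) and Celf1 at chr2:90940147-90940396 (plus).
Elavl3: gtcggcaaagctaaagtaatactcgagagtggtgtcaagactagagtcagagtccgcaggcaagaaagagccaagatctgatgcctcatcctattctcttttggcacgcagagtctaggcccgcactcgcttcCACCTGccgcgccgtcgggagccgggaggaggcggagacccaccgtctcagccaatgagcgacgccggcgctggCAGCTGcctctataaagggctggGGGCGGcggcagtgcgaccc
Celf1: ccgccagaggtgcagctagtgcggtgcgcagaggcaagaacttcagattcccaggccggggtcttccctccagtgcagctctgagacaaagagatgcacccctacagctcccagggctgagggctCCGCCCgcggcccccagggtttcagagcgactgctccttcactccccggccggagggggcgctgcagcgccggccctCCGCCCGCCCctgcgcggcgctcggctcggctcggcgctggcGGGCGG
The Elavl3 window held 1 GC box, 2 E-boxes and 1 TATAAA starting 33 bases before the start. The Celf1 window held 4 GC boxes, 2 of them overlapping, and no E-box or TATAAA. Neither held TAATTA. Over all 32851 windows of that length, 32.7% held a GC box, 66.2% an E-box, 12.4% TATAAA and 4.84% TAATTA. G and C made up 61.6% of the Elavl3 window and 72.4% of the Celf1 window, against a median of 52.4% over all windows. These matches describe the letters only.

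Elavl2 was the most abundant member. Over all neurons of a mouse its mean level was 7.75 ± 0.83 UMIs per 10000 (SD, n = 5), and 84.1% ± 3.1 of neurons had at least 1 of its UMIs. Elavl3 (4.92 ± 2.62), Celf3 (4.35 ± 0.77) and Celf4 (4.20 ± 0.66) came next, and Celf6 (2.55 ± 0.29) and Elavl4 (2.26 ± 0.43) after them. Celf1 (1.19 ± 0.56) and Celf5 (0.521 ± 0.229) were lower, and Celf2 (0.324 ± 0.122) and Elavl1 (0.236 ± 0.068) were the lowest. Elavl1 totalled 155 UMIs and Celf2 219 UMIs in all 1303 neurons, so their values rest on few molecules. The cells outside the neuronal table were not analysed here, and the level that free RNA would give was not measured.

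All 10 members had their lowest mean in NA2 or NA3 among the 5 noradrenergic subtypes. The share of all genes with that placement was not counted, so nothing is read from this number. The median log2 difference over all genes tested below was -0.29 in NA2 against NA1c and -0.25 in NA3 against NA1a. NA2 was lowest for Elavl1, Elavl2, Elavl3, Celf1, Celf2, Celf3 and Celf5, and NA3 for Elavl4, Celf4 and Celf6. The highest mean was in NA1c for Elavl2, Elavl3, Celf1, Celf4 and Celf5. NA1b was highest for Celf3, NA1a for Elavl4, NA2 for Celf6, and NA3 for Elavl1 and Celf2. After thinning to 2000 UMIs the highest mean was in NA1b for Elavl2 and Celf1 and in NA1c for Elavl1, and the other 7 members kept their highest subtype.

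**Figure D1:**
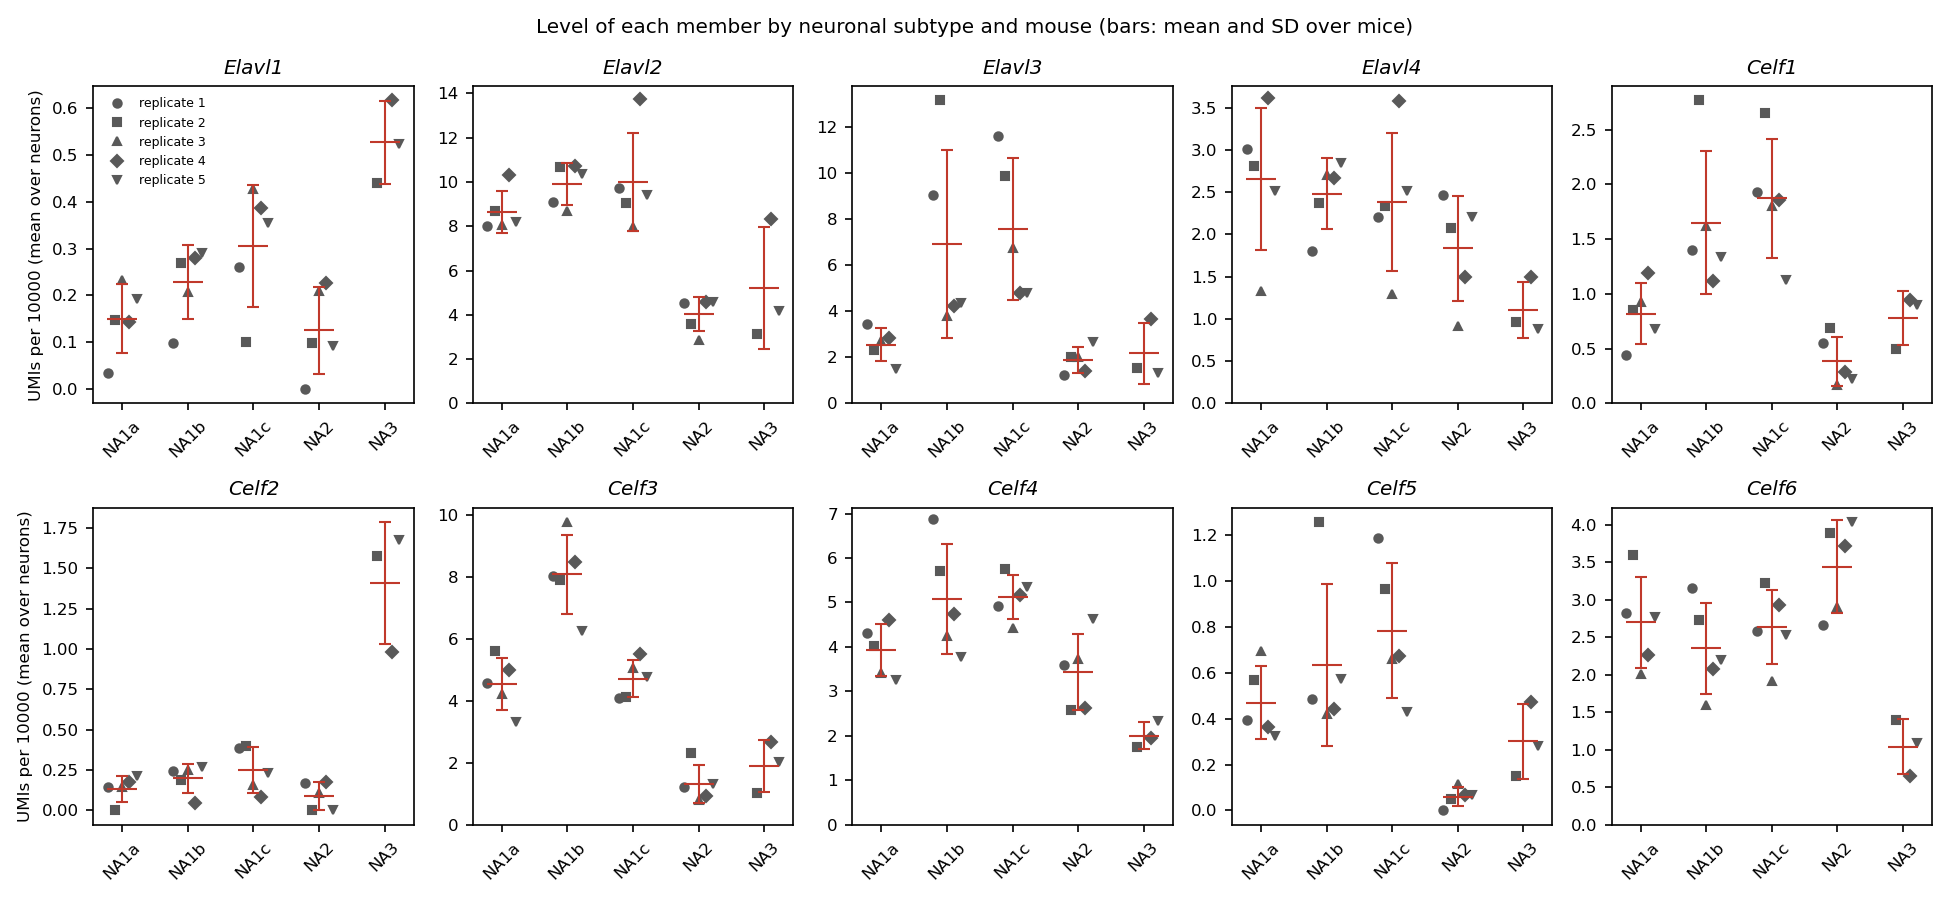
Level of each of the 10 members (UMIs per 10000, mean over neurons of a mouse; vertical axes differ between panels) in NA1a, NA1b, NA1c, NA2 and NA3. Symbols are mice with at least 10 neurons and bars are the mean and SD over 5 mice, or 3 mice in NA3. Elavl3 spread from 3.81 to 13.2 in NA1b, and Celf2 lay between 0.979 and 1.67 in NA3 and at or below 0.402 elsewhere.

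The neuronal Elavl genes differed most in Elavl3, a protein found in nearly all mature neurons. In NA1a its level was 3.43, 2.30, 2.69, 2.84 and 1.48 in replicates 1 to 5. In NA1b it was 9.03, 13.2, 3.81, 4.23 and 4.36, and in NA1c 11.6, 9.88, 6.75, 4.80 and 4.78. Every mouse was lower in NA1a than in NA1b and NA1c, and the ranges of NA1a did not overlap those of the other 2 subtypes. Mean levels were 2.55 ± 0.72 in NA1a, 6.92 ± 4.09 in NA1b and 7.56 ± 3.07 in NA1c (SD, n = 5 each), which is 2.71-fold and 2.97-fold above NA1a. The spread over mice within NA1b was large because replicates 1 and 2 lay at 9.03 and 13.2 while the other 3 mice lay at or below 4.36. In NA2 the level was 1.23, 1.99, 2.01, 1.42 and 2.67, and in NA3 1.52, 3.68 and 1.30 in replicates 2, 4 and 5. NA1b and NA1c did not differ beyond their spread (4 of 5 mice higher in NA1c), nor did NA1a and NA3, or NA3 and NA2. The share of neurons with an Elavl3 UMI, after thinning each neuron to 2000 UMIs, was 35.0% ± 9.5 in NA1a, 69.0% ± 14.8 in NA1b and 71.9% ± 16.3 in NA1c. The unthinned shares were 79.0%, 88.4% and 82.5%, and NA1a was the deepest of these 3 subtypes.

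Elavl2 was more even among the NA1 subtypes and separated them from NA2. In NA1c its level was 9.74, 9.07, 7.98, 13.8 and 9.41 in replicates 1 to 5. In NA2 it was 4.53, 3.59, 2.87, 4.58 and 4.60, so the groups did not overlap and the mean was 2.48-fold higher in NA1c. NA1a (8.65 ± 0.95) lay below NA1b (9.89 ± 0.95) in 5 of 5 mice, by 1.24 ± 0.79 (SD of the difference). NA1b and NA1c (9.99 ± 2.21) did not differ beyond their spread. In NA3 replicate 4 stood at 8.34 and replicates 2 and 5 at 3.15 and 4.15, and NA3 and NA2 were not separated. Without the neurons of shared barcodes, which leaves 4 mice, NA2 was at 4.13 ± 1.49, against 4.03 ± 0.78 with them.

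Elavl4, the neuronal member best known for stabilising Gap43 RNA, varied least among the NA1 subtypes. Its mean was 2.65 ± 0.84 in NA1a (SD, n = 5), and NA1b (2.48 ± 0.42), NA1c (2.38 ± 0.82) and NA2 (1.83 ± 0.62) followed with 5 mice each. No neighbouring pair in this order differed beyond its spread, while NA1a was above NA1c in 5 of 5 mice with overlapping ranges. Thinned to 2000 UMIs, NA2 (2.51 ± 1.30, 4 mice) stood above NA1b (2.47 ± 0.46) and NA1c (2.22 ± 0.76). In NA3 the level without thinning was 0.959, 1.49 and 0.881, below NA2 of the same mouse in 3 of 3 mice. Elavl1 was low throughout, with means of 0.125 in NA2 to 0.306 in NA1c and 0.527 ± 0.088 in NA3 (n = 3). NA3 was above NA1c of the same mouse in 3 of 3 mice, from 4 to 14 Elavl1 UMIs per mouse. After thinning to 2000 UMIs this order turned, with 0.362 ± 0.120 in NA3 and 0.398 ± 0.241 in NA1c, so the place of Elavl1 is not settled at this depth.

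By the means over mice, Elavl2 supplied the largest part of the neuronal Elavl molecules in each of the 5 noradrenergic subtypes, and the share of Elavl3 varied most. Single mice departed from this: Elavl3 stood above Elavl2 in NA1b of replicate 2 (13.2 against 10.7) and in NA1c of replicates 1 (11.6 against 9.74) and 2 (9.88 against 9.07). The sum of Elavl2, Elavl3 and Elavl4 was 13.9 ± 1.9 in NA1a, 19.3 ± 4.2 in NA1b, 19.9 ± 3.4 in NA1c, 7.73 ± 1.33 in NA2 and 8.49 ± 4.36 in NA3. Elavl2 made up 62.8% ± 4.8 of the sum in NA1a, 52.6% ± 8.9 in NA1b, 50.5% ± 8.9 in NA1c, 52.2% ± 5.9 in NA2 and 61.1% ± 4.9 in NA3. Elavl3 made up 18.4% ± 4.7 in NA1a, 33.9% ± 12.8 in NA1b and 37.6% ± 11.9 in NA1c. Elavl4 ranged from 11.9% ± 3.5 in NA1c to 23.2% ± 5.6 in NA2. In neurons thinned to 2000 UMIs, none of the 3 genes was found in 0.941% ± 1.463 of NA1b neurons, 3.55% ± 2.22 of NA1c neurons and 7.13% ± 6.63 of NA1a neurons. The same share was 23.3% ± 6.4 in NA2 (4 mice) and 28.7% ± 2.7 in NA3 (3 mice). Unthinned, it was 1.01%, 0.839%, 1.35%, 21.5% and 11.3% in the same order, and a neuron without a UMI at this depth may still express the gene.

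**Figure D2:**
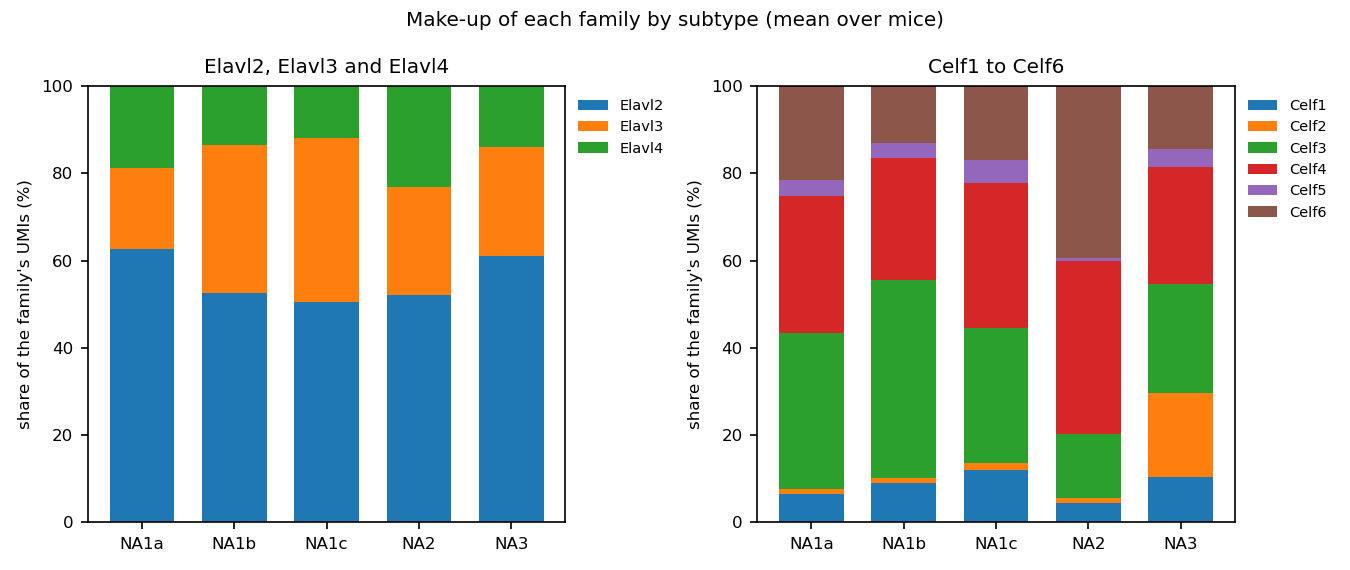
Share of the family's UMIs (%, mean over mice) by subtype, for Elavl2, Elavl3 and Elavl4 (left) and for Celf1 to Celf6 (right); each bar adds to 100%. Elavl3 held 18.4% of its bar in NA1a and 37.6% in NA1c, Celf6 held 39.5% in NA2, and Celf2 held 19.2% in NA3.

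Among the Celf genes, Celf3 was highest in NA1b of the matched mice. Its level was 8.01, 7.88, 9.78, 8.49 and 6.25 in NA1b of replicates 1 to 5 and 4.11, 4.12, 5.05, 5.50 and 4.76 in NA1c. NA1a held 4.59, 5.59, 4.22, 4.99 and 3.32. Every mouse was higher in NA1b than in the other 2 subtypes, and NA1b overlapped neither of them. The mean in NA1b (8.08 ± 1.27) was 1.72-fold above NA1c (4.71 ± 0.60) and 1.78-fold above NA1a (4.54 ± 0.85), and NA1a and NA1c did not differ beyond their spread. In NA2 Celf3 was at 1.21, 2.33, 0.786, 0.919 and 1.33, and in NA3 at 1.02, 2.67 and 2.02. NA2 was at 1.31 ± 0.61 with all neurons and at 1.12 ± 0.26 (4 mice) without the shared barcodes. The share of neurons with a Celf3 UMI at 2000 UMIs was 79.4% ± 11.6 in NA1b, 53.7% ± 12.0 in NA1c and 55.6% ± 12.6 in NA1a, and unthinned 86.8%, 73.5% and 90.1%.

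Celf4, which binds many synaptic transcripts, and Celf6, another neuronal member, had flatter profiles. Celf4 was at 5.08 ± 1.24 in NA1b and 5.12 ± 0.49 in NA1c, and NA1a was lower than NA1b in 5 of 5 mice at 3.93 ± 0.58. NA2 followed at 3.43 ± 0.85, with no separation from NA1a, and NA3 at 2.01 ± 0.30. Celf6 was the 1 member with its highest mean in NA2, at 2.66, 3.89, 2.91, 3.72 and 4.04 in replicates 1 to 5. In NA1c the values were 2.59, 3.22, 1.92, 2.93 and 2.54, lower than NA2 in the same mouse in 5 of 5 mice although the ranges overlapped. NA2 was at 3.44 ± 0.62 and NA1c at 2.64 ± 0.49, and without the shared barcodes NA2 was at 3.38 ± 0.94 (4 mice). In NA3 Celf6 was at 1.39, 0.652 and 1.09, and NA3 did not overlap NA1a.

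Celf1 binds GU-rich elements and is linked to decay of the transcripts that carry them. Like Elavl2, Elavl3 and Celf5, it had its highest mean in NA1c and its lowest in NA2. Its level was 0.442, 0.849, 0.930, 1.19 and 0.682 in NA1a, and 1.93, 2.65, 1.81, 1.86 and 1.12 in NA1c. The ranges overlapped through replicate 5 of NA1c and replicate 4 of NA1a, while each mouse was higher in NA1c. Means were 0.818 ± 0.278 in NA1a, 1.65 ± 0.65 in NA1b, 1.87 ± 0.54 in NA1c, 0.384 ± 0.226 in NA2 and 0.779 ± 0.244 in NA3. None of these neighbours in the order of levels was separated in every mouse. Celf5 was low in the NA1 subtypes (0.471 ± 0.158, 0.636 ± 0.353 and 0.785 ± 0.294 in NA1a, NA1b and NA1c) and nearly absent from NA2, at 0, 0.0490, 0.113, 0.0695 and 0.0655. Without the shared barcodes NA2 was at 0.0840 ± 0.0661 (4 mice).

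Celf2 stood apart in NA3. Its level there was 1.58, 0.979 and 1.67 in replicates 2, 4 and 5, from 46, 6 and 30 UMIs. The highest value in any mouse of the other 4 subtypes was 0.402, so NA3 did not overlap them. The mean was 1.41 ± 0.38 in NA3 and 0.136 ± 0.081 in NA1a, a ratio of 10.4. After thinning to 2000 UMIs the NA3 mean was 0.799 ± 0.749 and replicate values ran from 0 to 1.49, so the size of the difference was not stable at that depth. When the NA3 neurons of each mouse were divided at the median of the summed satellite glia markers, Celf2 was at 1.35 in the upper and 1.79 in the lower part of replicate 2. It was at 1.03 and 0.933 in replicate 4, and at 2.08 and 1.29 in replicate 5. The direction differed between mice, and these parts held 7 to 20 neurons each. The glial sum of the lower parts was 333, 43.0 and 146 in replicates 2, 4 and 5, each above the highest NA1 or NA2 mouse (30.9). Elavl1, Elavl3, Elavl4, Celf3 and Celf5 were lower in the glia-rich part in 3 of 3 mice. Elavl2, Celf1 and Celf4 were higher there in replicate 4 and Celf6 in replicate 2. The share of all genes lower in 3 of 3 mice was not counted, so nothing is read from the number of members. Elavl1 was at 0.237 against 0.628, 0.604 against 0.630 and 0.328 against 0.709, from 14, 4 and 8 UMIs in the undivided NA3 neurons of these mice. Elavl4 was at 0.737 against 1.16, 0.556 against 2.42 and 0.362 against 1.37, and Celf3 at 0.824 against 1.19, 1.43 against 3.91 and 0.899 against 3.08.

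The make-up of the Celf family shifted accordingly. Celf3 held 45.2% ± 6.9 of Celf UMIs in NA1b, 35.9% ± 2.6 in NA1a and 30.8% ± 5.0 in NA1c, and 14.8% ± 5.6 in NA2. In NA2, Celf4 (39.5% ± 8.7) and Celf6 (39.5% ± 5.5) together made up most of the family. Celf2 held 19.2% ± 6.1 in NA3 and at most 2.57% in any mouse of the other 4 subtypes. The summed Celf level was 18.0 ± 2.5 in NA1b, 15.4 ± 1.3 in NA1c, 12.6 ± 1.6 in NA1a, 8.73 ± 1.13 in NA2 and 7.45 ± 0.98 in NA3.

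The cholinergic and glutamatergic subtypes had few neurons per mouse, and their levels are pooled over all neurons with no error over mice. Ach2 (62 neurons) resembled the NA1 subtypes in Elavl2 (8.96), Celf3 (4.55) and Elavl3 (4.36). Without its 15 neurons of shared barcodes these were 10.6, 5.56 and 5.68. Ach1 (64 neurons, 55 of them from replicate 4) was lower, at 4.21, 1.38 and 1.90. Its satellite glia markers summed to 126, second to NA3, and its fibroblast markers to 47.6, the highest of the 8 subtypes. Glut (37 neurons) combined the highest pooled Celf4 (7.09) and Elavl4 (5.11) of the 8 subtypes with a low Celf3 (1.15). Without its 3 neurons of shared barcodes these values were 6.79, 4.41 and 1.07. The share of Glut neurons with a Celf4 UMI was 81.1% (95% Clopper-Pearson interval 64.8% to 92%, counting error only). Single mice differed widely. Replicates 4 and 5, with 7 Glut neurons each, held Celf4 at 7.41 (10 UMIs) and 0.660 (2 UMIs), and Elavl4 at 10.9 and 2.73. In the 20 Glut neurons of the unmatched mice Celf4 was at 9.36, Elavl4 at 4.01 and Celf3 at 1.36, and Elavl4 there lay below NA1b (5.29), NA1a (4.61) and Ach2 (4.58) of the same mice.

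The neurons of the 3 unmatched mouse names gave pooled levels that partly stood outside the range of the 5 matched mice. In their 134 NA1a neurons Elavl2 was at 14.6 and Celf3 at 7.52, above the highest matched mouse (10.3 and 5.59). In their 74 NA1b neurons Elavl2 was at 14.7, Celf3 at 9.62 and Elavl4 at 5.29, against matched maxima of 10.7, 9.78 and 2.85, so Celf3 there lay within the matched range. Elavl3 was again lower in NA1a (3.79) than in NA1b (8.08) and in the 23 NA1c neurons (7.15), as was Celf1 (1.08 against 2.99 and 2.53), though in both genes NA1b stood above NA1c, the reverse of the matched means. In the pooled values Celf3 was again highest in NA1b, with 6.43 in NA1c. The 1 name with at least 10 NA1c neurons held Celf3 at 9.57, above the matched NA1c range (4.11 to 5.50). That value also lay above the median of the NA1b names (8.58). The 25 NA2 neurons had low Elavl3 (1.41), Celf3 (1.38) and Celf5 (0.0207) as in the matched mice. The 7 unmatched NA3 neurons, under the minimum used for a mean, held Celf2 at 0.187 and no Elavl1 UMI, both below each of the 3 matched mice. By mouse name, Elavl2 in NA1a was at 9.94, 13.5 and 22.4 (lowest, median and highest of 3 names), and 2 of the 3 lay above the matched range. In NA1b Elavl2 was at 12.8, 15.3 and 15.5, with all 3 names above it. Elavl4 was at 4.13, 4.68 and 4.69 in NA1a and at 3.00, 5.81 and 5.86 in NA1b, again above every matched mouse. Celf3 was at 6.21, 6.22 and 8.04 in NA1a, all 3 above the matched range, and at 8.52, 8.58 and 10.6 in NA1b, where 1 was. Elavl3 in NA1b (7.05, 7.93 and 9.03) stayed within it. The 5 matched mice all belonged to 1 batch and the remaining 3 samples of the series to another. If the unmatched names are those 3 samples, this difference cannot be told apart from the batch, and it was not tested.

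The share of neurons in which a member was found is compared here at 1 depth. In neurons thinned to 2000 UMIs, Elavl2 was found in 76.2% ± 7.2 of NA1a, 80.8% ± 10.5 of NA1b, 87.6% ± 8.5 of NA1c, 51.2% ± 11.8 of NA2 and 52.3% ± 14.2 of NA3 neurons (SD over 5 mice for the NA1 subtypes, 4 for NA2 and 3 for NA3). Celf4 was found in 56.0% ± 6.8 of NA1a and 60.6% ± 16.3 of NA2 neurons, and in 32.9% ± 13.8 of NA3 neurons. Celf5 was found in 1.64% ± 1.89 of NA2 neurons and in 16.8% ± 7.1 of NA1c neurons, and Celf2 in 13.6% ± 13.5 of NA3 neurons. Unthinned, Elavl2 was found in 95.6% of NA1a, 91.1% of NA1b, 90.8% of NA1c, 61.4% of NA2 and 82.1% of NA3 neurons, so NA1a was the highest of the NA1 subtypes before thinning and the lowest after it. Of the 7 neuronal members (Elavl2 to Elavl4 and Celf3 to Celf6), a thinned neuron held 3.69 ± 0.25 in NA1b, 3.66 ± 0.26 in NA1c, 3.21 ± 0.32 in NA1a, 2.46 ± 0.34 in NA2 and 1.82 ± 0.36 in NA3.

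To set the members beside all other genes, the mean of each mouse and subtype was fitted with limma (log2 of the mean plus 0.1, mouse as a block) over the 5 noradrenergic subtypes, and a gene was called at an adjusted p (Benjamini-Hochberg) under 0.05. The fit held 6185 genes. It held 9 of the 10 members, since Elavl1 did not reach a mean of 0.5 UMIs per 10000 in enough profiles. Subtypes are clusters of these same neurons and the members were chosen by their pattern over them, so the calls are listed beside the share of all genes called and nothing is read from them. In NA1a against NA1b, 2 of 9 members (Elavl3 and Celf3) were called lower, with log2 differences of -1.27 (SE 0.28) and -0.82 (SE 0.24), where 1.47% of all genes were. In NA1a against NA1c, 2 of 9 (Elavl3 and Celf1) were called lower, at -1.49 (SE 0.28) and -1.12 (SE 0.31), beside 1.75% of all genes. Of 13 alternatives, Elavl3 kept its call in 12 in NA1a against NA1b, losing it with no filter on low genes (adjusted p = 0.073 by limma), and in 13 in NA1a against NA1c. Celf3 kept its call in 6 of 13 and lost it without replicate 1, 3, 4 or 5 in turn, with no filter, after thinning and with a minimum of 5 neurons (-0.72 to -1.01 over all alternatives). Celf1 kept its call in 8 of 13 and lost it without replicate 1 or 2, with no filter, with summed UMIs and after thinning (-0.59 to -1.24). In NA1b against NA1c none of 9 was called, beside 1.54% of all genes in either direction. Celf3 had the largest of these differences at 0.76 (SE 0.24).

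NA2 differed from NA1c in most of its transcriptome, and 36.5% of all genes were called lower. The members called lower were 7 of 9. Celf5 (-2.45), Celf1 (-2.11), Elavl3 (-1.92), Celf3 (-1.85) and Elavl2 (-1.29) had the largest log2 differences, and Celf2 (-0.92) and Celf4 (-0.59) the smallest. The median over all genes was -0.29 and that of the members -1.29. Elavl4 (-0.37) and Celf6 (0.37) were not called. Of the 7, Elavl2, Elavl3, Celf1, Celf3 and Celf5 kept their calls in 13 of 13 alternatives. Celf2 kept its call in 4 of 13 (-0.19 to -1.30), losing it with no filter, a pseudocount of 1, a minimum of 5 neurons, thinning, centring on the median gene, without the shared barcodes and without replicate 1, 2 or 5. Celf4 kept its call in 9 of 13 (-0.27 to -0.69), losing it after thinning, with centring and without replicate 2 or 4. With each profile centred on its median gene, Celf6 was called higher in NA2 (0.70). That centring also moved the genes called higher from 39.1% to 51.7% of all called. Without the shared barcodes, Elavl4 was called lower (-0.63). In NA3 against NA1a, 5 of 9 members were called lower, beside 11.8% of all genes, and 1 was called higher, beside 7.29%. Those lower were Celf6 (-1.43), Elavl4 (-1.33), Celf3 (-1.33), Elavl2 (-0.92) and Celf4 (-0.92), and Celf2 was higher (2.91). The median over all genes was -0.25. The call of Celf2 was lost after thinning (1.37), and that of Celf4 without replicate 4. Elavl3 and Celf1 were not called.

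**Figure D3:**
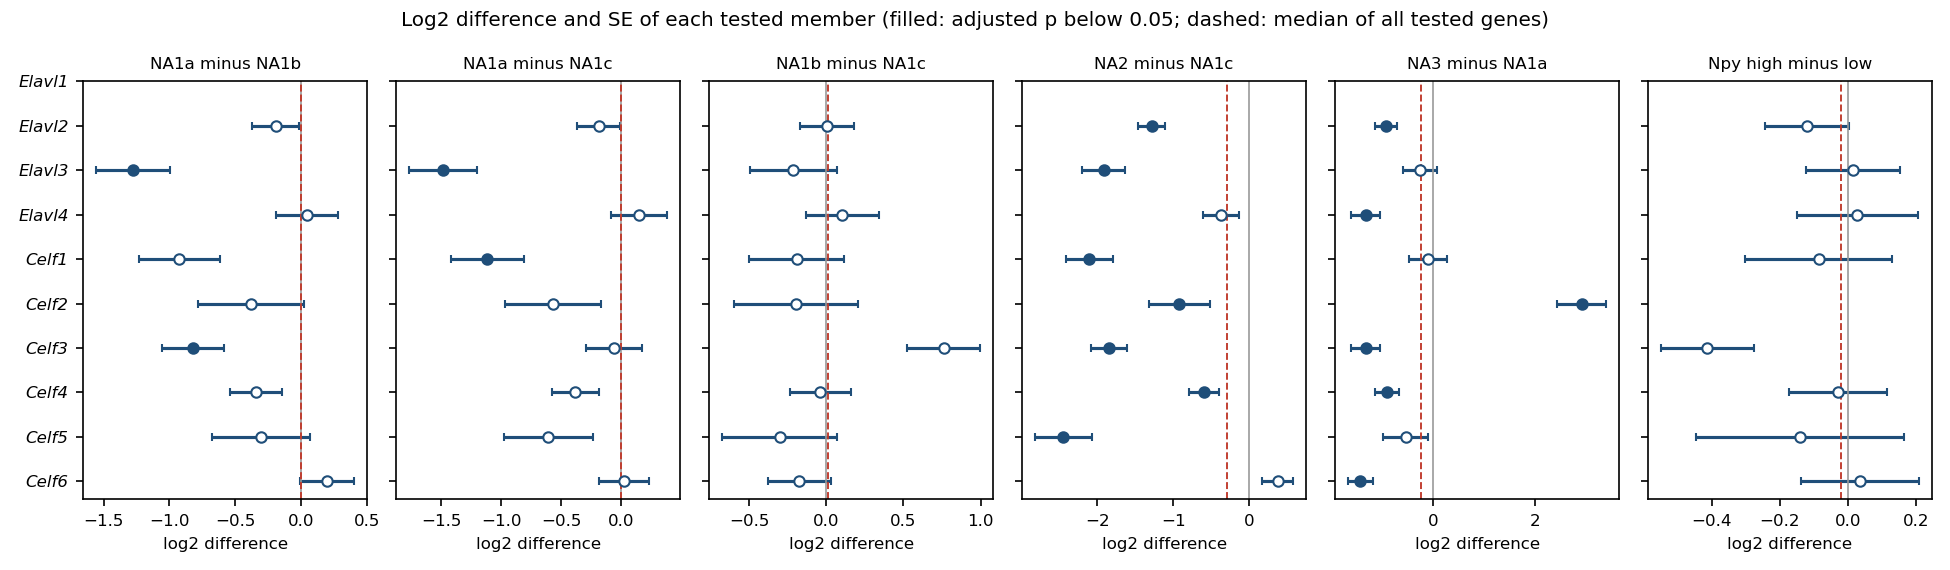
Log2 difference (horizontal axes, ranges differ between panels) and SE of the 9 members tested between subtypes and the 8 tested between Npy strata. Filled points had an adjusted p below 0.05 and the dashed line is the median of all tested genes. In NA2 minus NA1c Celf5 lay farthest left at -2.45 and Celf6 lay at 0.37.

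The counts for other RNA-binding proteins stand beside those for all genes. Of 45 genes on a list of splicing regulators, Pumilio, Zfp36, Igf2bp and related proteins, 36 were tested. None was called by limma in NA1a against NA1b or in NA1b against NA1c, where 4.14% and 1.54% of all genes were. At these background shares few calls would fall on 36 genes. At an unadjusted p below 0.05 by limma there were 3 and 0 of the 36, beside 993 and 582 of all 6185 genes. In NA1a against NA1c, beside 5.68% of all genes, 1 was higher (Igf2bp3, 1.13 ± 0.34 against 0.353 ± 0.283) and 1 lower (Pcbp3, 4.13 ± 0.33 against 6.55 ± 1.46). Igf2bp3 was not called without replicate 1, 2 or 5 in turn, and Pcbp3 not without any 1 of the 5 mice. In NA2 against NA1c, 1 was called higher and 22 lower, with a list median of -0.96. That is 63.9% of the list beside 59.9% of all genes. Srrm3, which drives neuronal microexon splicing, was at 0.259 ± 0.136 in NA2 and 5.07 ± 1.65 in NA1c. Tia1 (0.142 ± 0.164 against 1.53 ± 0.31) and Ptbp3 (0.288 ± 0.267 against 1.57 ± 0.47) followed. In NA3 against NA1a, 4 were higher and 7 lower, with a list median of -0.34, which is 30.6% of the list beside 19.1% of all genes. The 3 largest were all higher in NA3, namely Zfp36l1 (1.58 ± 0.36 against 0.0471 ± 0.0722), Qk (4.31 ± 1.24 against 0.336 ± 0.221) and Zfp36 (1.00 ± 0.20 against 0.0242 ± 0.0332). Qk is a regulator of glial RNA, and these values too stand beside the glial markers of NA3.

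Transcripts known as targets of neuronal Elavl proteins formed a list of 8, of which 5 were tested. Mapt, which encodes tau, was lower in NA1a (4.89 ± 0.57) than in NA1b (9.20 ± 2.67) and NA1c (8.87 ± 2.67), as Elavl3 was. It was the 1 of 5 targets called in each of these 2 comparisons, beside 4.14% and 5.68% of all genes, and neither call held without replicate 1 (-0.74 and -0.67) or after thinning. Mapt was at 4.37 ± 1.02 in NA2. Marcks was higher in NA2 (1.38 ± 0.50) than in NA1c (0.789 ± 0.330). In NA2 against NA1c, 2 of the 5 targets were called, Mapt lower and Marcks higher, beside 59.9% of all genes. The call of Marcks was lost with no filter, after thinning (0.37), with summed UMIs, without the shared barcodes and without replicate 4 or 5. In NA3 against NA1a, 2 of the 5 targets were called higher and 2 lower, beside 7.29% and 11.8% of all genes. Kcna1 (2.80 ± 0.67 against 0.0414 ± 0.0597) and Marcks (4.42 ± 1.15 against 0.496 ± 0.213) were higher, and Gap43, a growth cone protein, was lower (6.05 ± 0.34 against 13.4 ± 3.8). None of the 5 was called by limma in NA1b against NA1c, beside 1.54% of all genes. At an unadjusted p below 0.05 by limma there was 1 of the 5, beside 582 of all 6185 genes.

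The likeness of profiles was described by Pearson's r over the 23 profiles of mouse and subtype, on log2 values centred within mouse. These points share their libraries and neurons, and r is a description. Elavl2 and Celf3 were the most alike pair of members (r = 0.92), followed by Elavl2 and Celf5 (0.88), Elavl2 and Celf1 (0.83) and Celf1 and Celf5 (0.82). Elavl3 was most like Celf5 (0.81) and Celf1 (0.77) among the members. Celf2 and Celf6 ran opposite (r = -0.83). Over all tested genes, Elavl2 was most like A830018L16Rik (0.96), Cyth3 (0.95) and Plekha6 (0.95), and Elavl3 most like Epb41l3, Larp4b and Dctn1 (0.92 each). Elavl4 was most like Sybu (0.86), 9330182L06Rik (0.82) and Snap25 (0.80). Celf1 was most like Trmt1 (0.96), Sart1 (0.91) and E4f1 (0.90), and Celf3 most like A830018L16Rik (0.95), Dock4 (0.95) and Mllt6 (0.94). Celf4 was most like Rogdi (0.93), Adcy3 (0.87) and March4 (0.86), and Celf6 most like Hcrtr1 (0.93), Syt4 (0.89) and Basp1 (0.87).

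**Figure D4:**
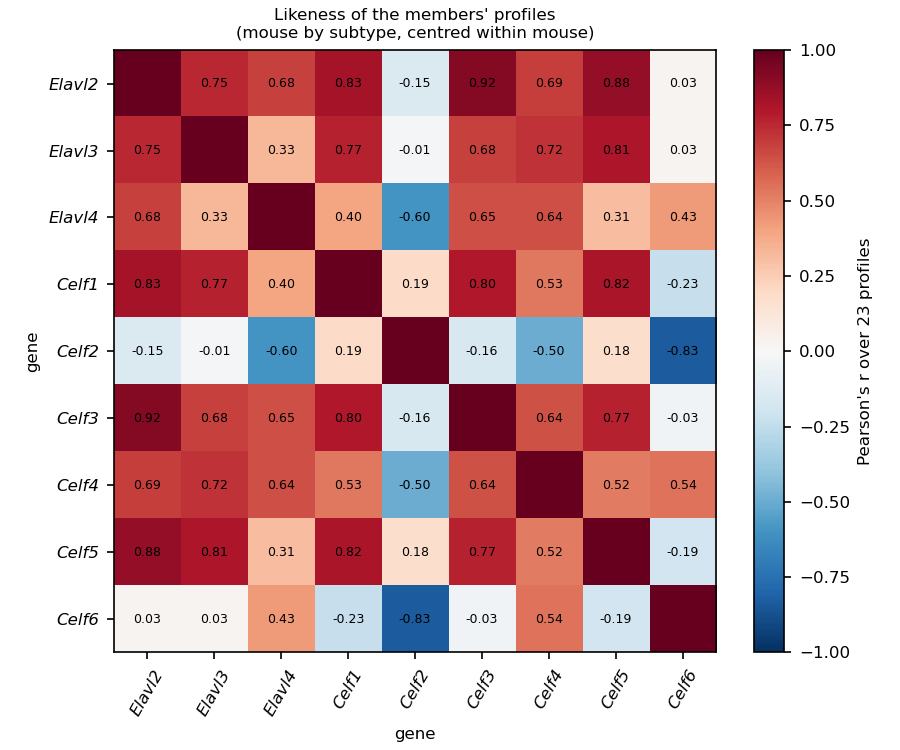
Pearson's r between the 9 members tested (both axes list the genes) over 23 profiles of mouse and subtype, log2 values centred within mouse. Red is positive and blue negative: Elavl2 and Celf3 reached 0.92, and Celf2 and Celf6 reached -0.83.

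Across single neurons within a mouse and subtype the members were nearly unrelated. Over 163 combinations of subtype and pair of members the mean r over mice ran from -0.21 to 0.27, with a median of 0.015. These weak correlations of single-cell counts are given as a description and are not read as a finding.

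The level of Npy within a subtype was not used to choose the members, and it gave the 1 comparison read as a test here. Npy encodes neuropeptide Y, a co-transmitter of sympathetic neurons, and the study asked how neurons with high and low Npy differ. In each mouse the bottom 30% and the top 30% of NA1a, NA1b and NA1c neurons by Npy were averaged within the subtype and then over the 3 subtypes. This gave 30 to 57 neurons per mouse and stratum. Npy also differed between subtypes, with means of 0.906 (low) and 21.9 (high) in NA1b and 16.1 and 74.3 in NA1c. A difference between strata may therefore hold part of the subtype pattern, which was not tested. Of 3933 genes tested besides Npy, limma called 4 (0.102%), all higher in Npy-high neurons, namely Pcp4, S100a6, Gal and Rpl37. None of the 8 members tested was called. Elavl1 and Celf2 were too low to enter. At an unadjusted p below 0.05 there were 1 member and 433 genes.

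Celf3 had the largest difference of the members. In Npy-low neurons its level was 7.03, 6.97, 5.74, 7.08 and 5.41 in replicates 1 to 5, and in Npy-high neurons 4.49, 4.92, 5.38, 4.95 and 4.28. It was lower in Npy-high neurons in 5 of 5 mice and the groups did not overlap, and the limma log2 difference was -0.41 (SE 0.14, adjusted p = 0.209). The result therefore did not pass the correction over all genes. Over its alternatives the adjusted p ran from 0.0648 to 0.856. The difference came mainly from NA1b, where Npy-high neurons were lower in 5 of 5 mice (high minus low -1.07 to -5.34 UMIs per 10000), while in NA1a it was lower in 4 of 5 mice and in NA1c in 2 of 5. Median UMIs per neuron averaged 6628 in Npy-low and 2940 in Npy-high neurons of NA1b, and the part of this depth gap in the difference was not tested. After thinning, the log2 difference over the 3 subtypes was -0.41. Elavl2 was at 8.94 ± 1.06 in Npy-low and 8.21 ± 0.81 in Npy-high neurons and Elavl3 at 5.57 ± 2.25 and 5.73 ± 2.59. Their log2 differences were -0.12 (SE 0.12) and 0.02 (SE 0.14), and neither was called. Elavl4, Celf1, Celf4, Celf5 and Celf6 differed by -0.14 to 0.04 on the log2 scale, each with an SE larger than the difference.

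**Figure D5:**
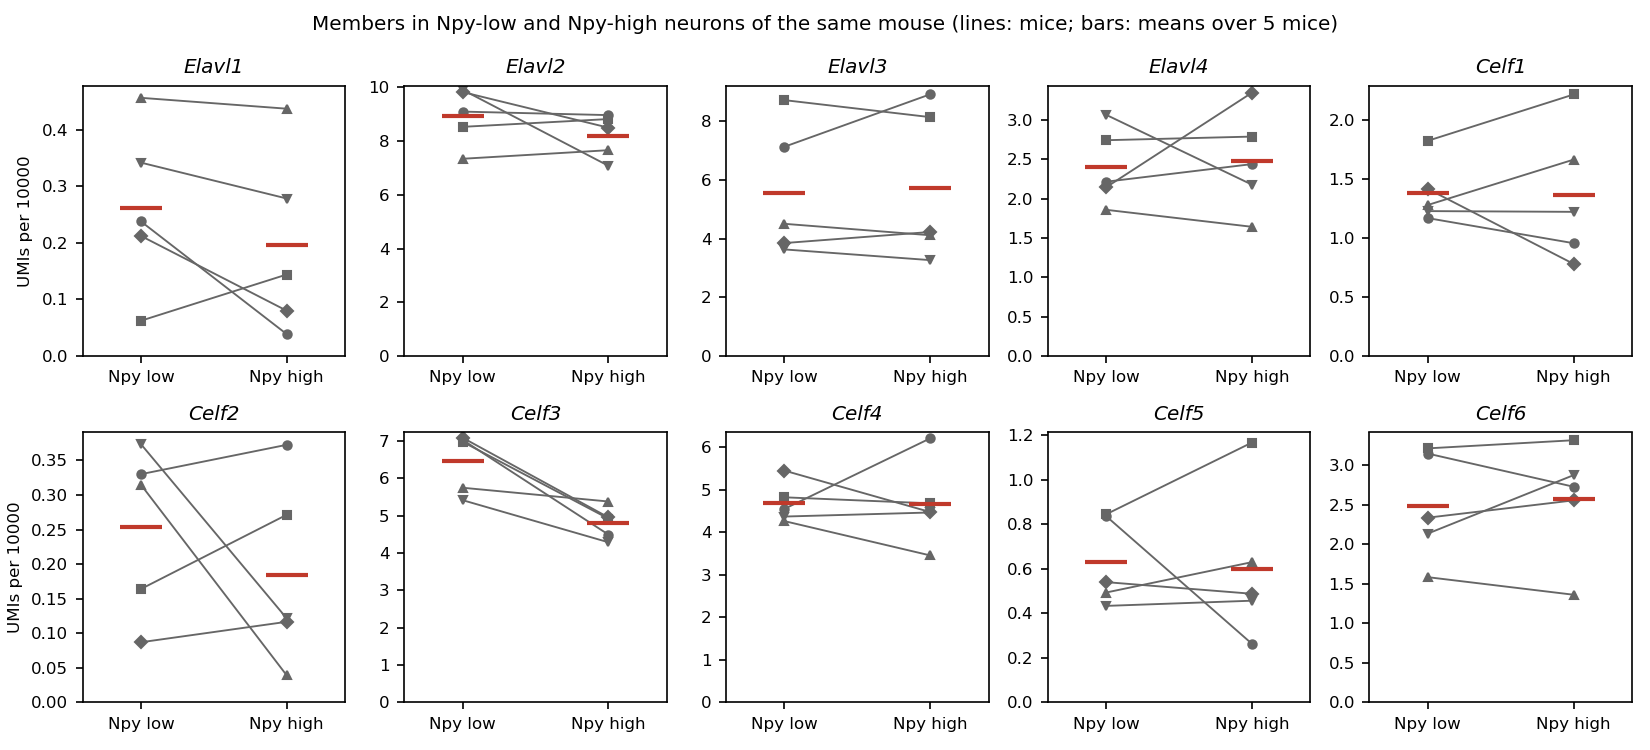
Levels of the 10 members (UMIs per 10000; vertical axes differ) in the Npy-low and Npy-high neurons of NA1a, NA1b and NA1c. Each line is 1 mouse and the red bars are means over 5 mice. Celf3 was lower in the Npy-high neurons of 5 of 5 mice, with means of 6.45 and 4.80.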

How the data were processed

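The authors aligned reads of single stellate ganglion cells with Cell Ranger 2.1.1 to mm10 (GRCm38) with the GFP sequence added, and filtered, integrated, clustered and named cells with Seurat and Scanpy. The values the authors deposited are on a natural log scale, ln(1 + UMIs per 10000), for 1303 neurons. They are not counts, so no count model was used. Dividing by each neuron's smallest step gave whole UMIs for 100% of values within 0.01, and all 1303 neurons passed the authors' filter (over 500 and under 6000 genes, under 20000 UMIs, under 15% mitochondrial RNA). No doublet removal was named in the sources used here and none was added. Labels do not say whether the mice were processed separately at every step, so p-values measure the spread between these samples.

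Mean UMIs per 10000 were taken per mouse and subtype with at least 10 neurons. A gene entered when its mean reached 0.5 in as many profiles as the smallest subtype had, or more. It was fitted with limma 3.58.1 (R 4.3.3) on log2(mean + 0.1), which understates the change of low genes, with the mouse as a block. In the Npy fit, strata held at least 5 neurons. Profiles of a mouse come from 1 animal and are paired; the mean correlation of their deviations was 0.071 between subtypes and 0.21 between Npy strata. The fit was tested on simulated data. Alternatives were no filter, a pseudocount of 1, no block, leaving out each mouse, thinning to 2000 UMIs, summed UMIs, at least 5 neurons, other Npy strata and, chosen after seeing the data, centring on the median gene and leaving out shared barcodes. Named genes were the 10 members, the 3 called genes with the largest log2 difference from each of 2 gene lists in each comparison, and the 3 genes most like each member with a mean of at least 0.5 over profiles. The members and lists were chosen with earlier results of these data known. Promoter windows are from RefSeq and gene positions from GENCODE M21.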

Additional observations from a re-analysis of the deposited data

Results flagged for a closer look

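In 60 groups of 5 mice examined (10 members in NA1a, NA1b, NA1c and NA2, and in the Npy-low and Npy-high neurons), 2 held a mouse far from the others by Dixon's criterion, which chance alone meets in about 1 group of 20. Elavl2 in NA1a was at 10.3 in replicate 4, while the other 4 mice lay between 8.02 and 8.68. Celf5 in NA1b was at 1.26 in replicate 2, while the other 4 lay between 0.421 and 0.575. No member moved with Npy in opposite directions in every mouse of 2 subtypes.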

How the results depend on the processing

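Genes called numbered 256 in NA1a minus NA1b, 351 in NA1a minus NA1c, 95 in NA1b minus NA1c, 3706 in NA2 minus NA1c, 1182 in NA3 minus NA1a and 4 between Npy strata. Without 1 mouse in turn they ranged from 102 to 207, 129 to 251, 61 to 136, 3350 to 3621, 830 to 1035 and 1 to 9 in that order. Thinning to 2000 UMIs gave 83, 99 and 59 in the first 3 comparisons and 1 for Npy, and no filter gave 161 and 167 in the first 2 and 1 for Npy. A pseudocount of 1 gave 421 in NA1a minus NA1b, 148 in NA1b minus NA1c and 11 for Npy. Summed UMIs gave 159 in NA1b minus NA1c and 45 for Npy, and centring on the median gene gave 14 for Npy. Leaving out the shared barcodes gave 3221 in NA2 minus NA1c. Without the replicate block the Npy comparison called 1 gene, and the block changed no call of a member. No alternative called a member in the Npy comparison.

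Of 53 differences of members, 18 changed sign under at least 1 alternative (39 of 687 values), none of them called. In 32 of the 39 the value moved by no more than the SE of the difference and lay within 0.15 of 0. In the other 7 it moved by more than the SE: after thinning Celf5 in NA1a minus NA1b (0.37), Celf1 in NA1b minus NA1c (0.14), Elavl4 in NA2 minus NA1c (0.14) and Elavl2 between Npy strata (0.022), without replicate 2 Celf1 in NA3 minus NA1a (0.29, range without 1 mouse -0.38 to 0.29), without replicate 1 Celf5 between Npy strata (0.17, range -0.25 to 0.17), and in NA1a alone Celf6 between Npy strata (-0.20). Celf3 in NA1b minus NA1c was called with a pseudocount of 1 (0.67) and with summed UMIs (0.93), and Celf1 in NA1a minus NA1b with a pseudocount of 1 (-0.53). The causes were not tested. All 10 members had their lowest mean in NA2 or NA3 under each alternative except summed UMIs, where 9 did. The share of all genes with that placement was not counted, and the members were chosen by their pattern over subtypes. Depth limits Elavl1, Celf2 and Celf5, whose levels rest on 155, 219 and 363 UMIs.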
